A study of Rattus norvegicus with 21 samples.

Results

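The genes described here are 7 textbook transcriptional targets of p53, Mdm2, Cdkn1a, Ccng1, Aen, Bax, Btg2 and Phlda3, followed in rat liver over vehicle and 5 doses of 2-ethylhexyl diphenyl phosphate (EHDP, abbreviated EDHP in the sample labels). They were chosen by name, with earlier results of these data known, so counts among them and the gene lists below are descriptions. A probe set was used only where the array annotation paired it with exactly 1 gene symbol equal to a member. By that rule 5 of the 7 genes were measured, by 9 of 31099 probe sets: Mdm2 by 3, Cdkn1a and Aen by 2 each, and Ccng1 and Phlda3 by 1 each. Bax and Btg2 had no probe set under the rule and are named only. Where a gene had several, the brightest on average over the 21 arrays, called its main probe set, stood for it among 14218 genes.

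p53 is a transcription factor that is held at a low level by the ubiquitin ligase Mdm2 and is stabilised when DNA is damaged or a cell is otherwise stressed. Mdm2 is itself a p53 target, so the pair forms a negative feedback loop, while Cdkn1a (p21) binds cyclin-dependent kinases and holds cells before DNA replication. In liver, p21 is known as a brake on hepatocyte division, and both genes also answer to transcription factors other than p53. The roles given here for the genes are known mainly from human and mouse cells.

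All animals were male Harlan Sprague-Dawley rats given the compound or its vehicle by oral gavage on 4 consecutive days, with no genetic modification stated. The groups were EHDP in corn oil at 61.2, 122.5, 244.6, 489.2 and 978.5 mg/kg, with 3 arrays each, and corn oil alone, with 6 arrays. RNA came from pieces of the left liver lobe and was hybridised to expression arrays, and the values are log2 signals. The protocol counts 5 vehicle rats where 6 arrays carry that label, and the labels do not tie each array to its own animal, so p-values measure the spread between these arrays. Every dose is set against the same 6 vehicle arrays, so the comparisons with vehicle are not independent of each other.

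The promoters of Cdkn1a and Mdm2 are shown because these 2 genes changed most and in opposite directions. Each is the 250 bases before the annotated start, on the gene's own strand, from RefSeq (GRCr8). That of Cdkn1a lies at chr20:7150682-7150931 on the plus strand and that of Mdm2 at chr7:55200792-55201041 on the minus strand. Capitals mark a match to the p53 site, taken as 2 adjoining half-sites of 10 bases that keep the core C and G of each, with at most 2 mismatches.
Cdkn1a: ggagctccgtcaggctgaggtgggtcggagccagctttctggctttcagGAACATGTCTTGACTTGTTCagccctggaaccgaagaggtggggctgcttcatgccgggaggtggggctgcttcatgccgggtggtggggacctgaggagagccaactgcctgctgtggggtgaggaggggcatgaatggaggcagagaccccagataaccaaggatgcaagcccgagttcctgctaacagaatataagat
Mdm2: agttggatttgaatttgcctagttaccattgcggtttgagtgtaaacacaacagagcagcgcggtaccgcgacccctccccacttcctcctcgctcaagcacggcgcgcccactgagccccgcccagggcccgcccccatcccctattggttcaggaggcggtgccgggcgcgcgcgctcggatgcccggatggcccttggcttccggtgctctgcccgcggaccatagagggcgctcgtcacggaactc
The Cdkn1a match has 1 mismatch and lies 201 to 182 bases before the annotated start. Whether liver uses that start was not tested. No such match is in the Mdm2 window. In human and mouse, p53 is known to act on Mdm2 through elements in its first intron, which this window does not reach.

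The promoters of 6 of the 7 genes were matched in RefSeq, and the p53 site was found in 3 of them, against 92 of 33469 promoters of the same length (0.275%). The genes were chosen as known p53 targets, so this contrast describes them and is not a test. The 3 matches are shown because they are the letters that these promoters share with the consensus.
Cdkn1a match: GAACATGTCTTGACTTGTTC
Ccng1 match: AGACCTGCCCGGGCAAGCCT
Aen match: GGGCATGTCCGGGCAAGCAA
That of Ccng1 has 1 mismatch and lies 242 to 223 bases before its start, within chr10:25684877-25685126 on the minus strand. That of Aen has 2 mismatches and lies 30 to 11 bases before its start, within chr1:142224283-142224532 on the plus strand. The windows of Phlda3 and Btg2 hold none. Both strands were also searched for 3 other motifs, none of which shares its letters with the p53 site. The GC box GGGCGG was found in Mdm2 (2 matches), Ccng1 (1), Phlda3 (4) and Btg2 (3), against 30.5% of all promoters with at least 1. The antioxidant response core TGACNNNGC was found once, in Cdkn1a, against 10.1% of promoters, and the E-box CACGTG in none of the 6, against 5.59%. A match describes the letters of the window only.

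Mdm2 rose and Cdkn1a fell at the 2 highest doses, Aen fell at the highest dose, and neither Ccng1 nor Phlda3 passed the test at any dose. At 978.5 mg/kg Mdm2 stood 1.76-fold above vehicle (log2 difference 0.81 ± 0.09, SE), Cdkn1a 4.54-fold below (-2.18 ± 0.24) and Aen 1.27-fold below (-0.34 ± 0.08). The 5 genes did not share a direction: 1 rose, 2 fell and 2 did not pass, in a comparison where 10.2% of all genes were called.

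**Figure D1:**
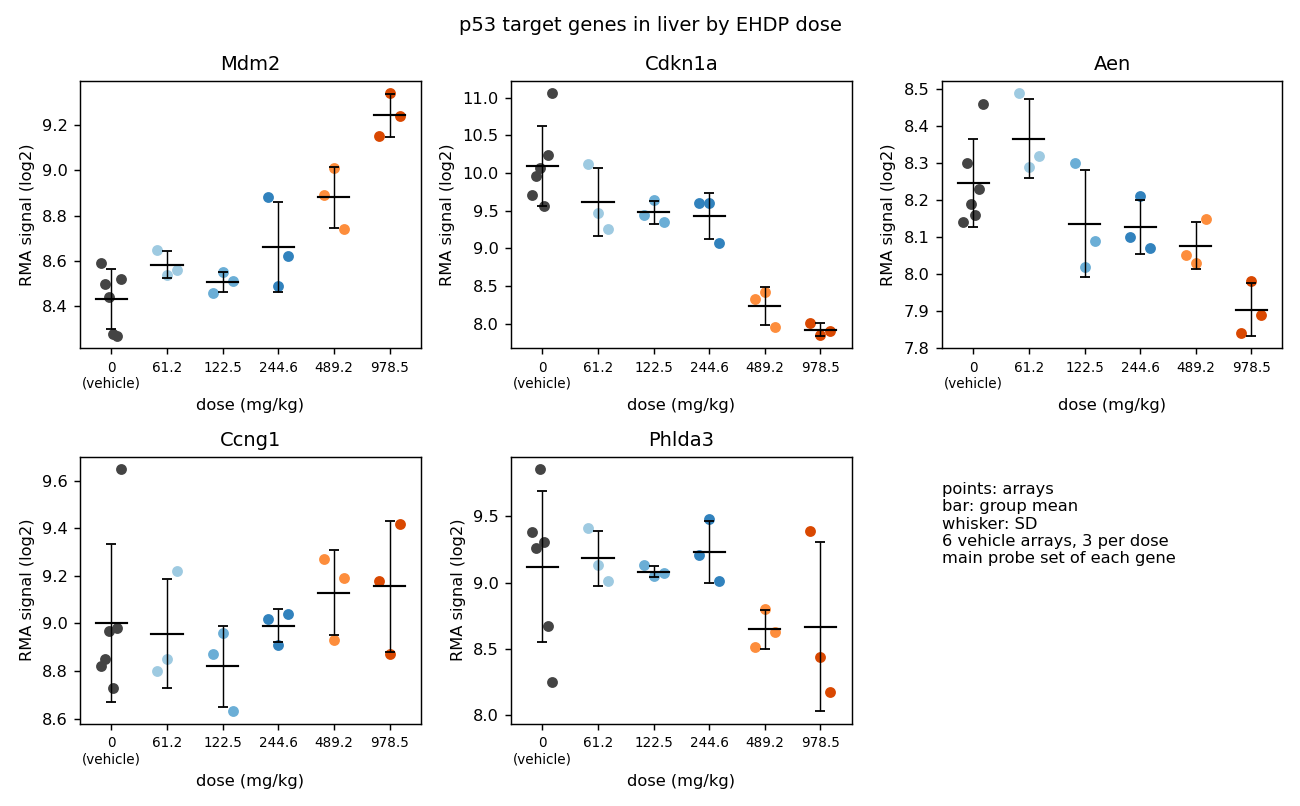
Log2 signal of the main probe set of each of the 5 measured genes on every array, by dose in mg/kg from vehicle (6 arrays) to 978.5 (3 arrays), with the group mean. All 978.5 mg/kg arrays lie above all vehicle arrays for Mdm2 and below them for Cdkn1a and Aen, while Ccng1 and Phlda3 overlap.

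Mdm2, the ligase that marks p53 for degradation, had signals on its main probe set, 1383288_at, of 9.15, 9.34 and 9.24 at 978.5 mg/kg, against 8.27, 8.47 and 8.59 (lowest, median and highest) in the 6 vehicle arrays. Signals at 489.2 mg/kg were 8.89, 9.01 and 8.74, which also all exceeded the vehicle arrays. At 244.6 mg/kg they were 8.88, 8.49 and 8.62, with 1 array inside the vehicle range. The lower doses overlapped vehicle, with 8.65, 8.54 and 8.56 at 61.2 mg/kg and 8.46, 8.55 and 8.51 at 122.5 mg/kg.

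The limma fit over all genes gave Mdm2 log2 differences from vehicle of 0.15, 0.07 and 0.23 at 61.2, 122.5 and 244.6 mg/kg, with adjusted p = 0.93, 0.949 and 0.222. The difference was 0.45 ± 0.09 at 489.2 mg/kg (limma adjusted p = 0.0078), and at 978.5 mg/kg 0.81 ± 0.09 (limma adjusted p = 9.88e-06). The call at 489.2 mg/kg sat near the threshold: it was lost when only the arrays of the 2 groups were fitted (adjusted p = 0.0511) and without replicate 1 of that dose (adjusted p = 0.0508). Mdm2 rose by 0.14 ± 0.02 per step of dose rank (limma adjusted p = 2.94e-05). No step between neighbouring doses passed, the nearest being 978.5 over 489.2 mg/kg at 0.37 ± 0.10 (limma adjusted p = 0.153).

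The 3 Mdm2 probe sets did not move equally. With every probe set of the array tested, the second, 1384427_at, had signals of 8.87, 9.02 and 9.13 at 978.5 mg/kg, against 7.89, 8.03 and 8.17 (lowest, median and highest) in vehicle. Its difference was 0.98 ± 0.10 (limma adjusted p = 3.48e-06). All 3 of its arrays at 244.6 mg/kg also lay above all vehicle arrays, with a difference of 0.38 ± 0.10 that just missed the threshold (limma adjusted p = 0.0506). An equal difference of 0.38 ± 0.10 was seen at 61.2 mg/kg, where 2 arrays exceeded every vehicle array (limma adjusted p = 0.788), and 0.08 at 122.5 mg/kg, so its differences did not run in dose order. The third, 1383485_at, had 6.76, 6.94 and 7.15 at 978.5 mg/kg, against 6.44, 6.67 and 6.79 in vehicle. One of these arrays lay inside the vehicle range, and the difference of 0.31 ± 0.11 did not pass (limma adjusted p = 0.0848).

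**Figure D2:**
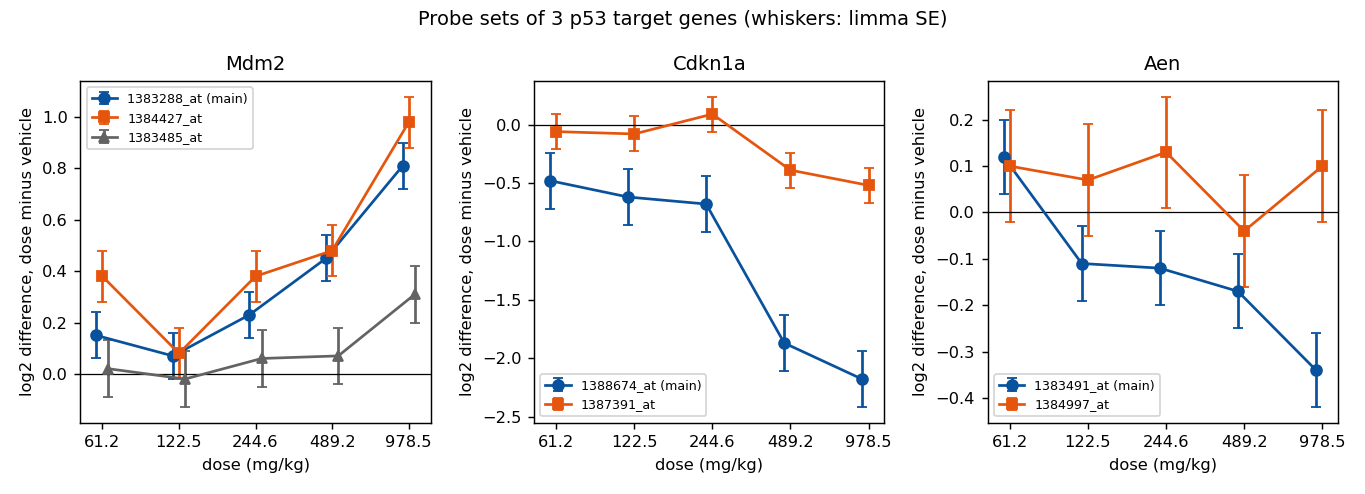
Log2 difference from the vehicle mean for each probe set of Mdm2, Cdkn1a and Aen by dose in mg/kg, with standard errors from the limma fit over all probe sets. At 978.5 mg/kg the Mdm2 probe sets differ by 0.81, 0.98 and 0.31, those of Cdkn1a by -2.18 and -0.52, and those of Aen by -0.34 and 0.10.

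Cdkn1a, the cyclin-dependent kinase inhibitor p21, showed the largest change among the 5 genes, and it was a fall. Its main probe set, 1388674_at, read 8.01, 7.85 and 7.90 at 978.5 mg/kg, against 9.56, 10.01 and 11.06 (lowest, median and highest) in the 6 vehicle arrays. The 489.2 mg/kg arrays read 8.33, 8.42 and 7.95, again below every vehicle array by more than 1 log2 unit. The 3 lower doses each overlapped vehicle: 10.12, 9.47 and 9.26 at 61.2 mg/kg, 9.44, 9.64 and 9.35 at 122.5 mg/kg, and 9.60, 9.60 and 9.07 at 244.6 mg/kg.

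The limma differences of Cdkn1a from vehicle were -0.48, -0.62 and -0.68 at 61.2, 122.5 and 244.6 mg/kg, with adjusted p = 0.923, 0.691 and 0.168. They were -1.87 ± 0.24 at 489.2 mg/kg (limma adjusted p = 0.0002, 3.65-fold lower) and -2.18 ± 0.24 at 978.5 mg/kg (limma adjusted p = 9.88e-06). Vehicle replicate 6 was the highest array at 11.06; without it the difference at 978.5 mg/kg was -1.99 (limma adjusted p = 1.27e-06). Per step of dose rank Cdkn1a fell by 0.42 (SE 0.05, limma adjusted p = 2.95e-06).

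Cdkn1a was the only one of the 5 genes with a called step between neighbouring doses. It fell between 244.6 and 489.2 mg/kg, with a log2 difference of -1.19 ± 0.28 for 489.2 over 244.6 mg/kg (limma adjusted p = 0.0277), and 1.7% of all genes were called in that comparison. That call was lost without replicate 1 or 2 of 244.6 mg/kg (adjusted p = 0.15 and 0.141) or replicate 1 or 3 of 489.2 mg/kg (adjusted p = 0.0889 and 0.149). It was also lost with the mean of its probe sets (-0.84, adjusted p = 0.0524). From 489.2 to 978.5 mg/kg the further difference of -0.32 ± 0.28 did not pass (limma adjusted p = 0.647), in a comparison where 0.106% of all genes were called.

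The other Cdkn1a probe set, 1387391_at, moved the same way by a smaller amount. It is dim, with a mean level at percentile 24.8 among the main probe sets of all genes, against 77.1 for the main one of Cdkn1a. It read 5.29, 5.70 and 5.64 at 978.5 mg/kg, against 5.87, 5.99 and 6.44 (lowest, median and highest) in vehicle. All of these treated arrays lay below all vehicle arrays, and the difference was -0.52 ± 0.15 (limma adjusted p = 0.0464). The 489.2 mg/kg arrays read 5.95, 5.66 and 5.40, with 1 array inside the vehicle range (-0.39 ± 0.15, limma adjusted p = 0.264).

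The spread between the Cdkn1a probe sets can be read within each array, as the main probe set minus the other. This gap was 2.72, 2.15 and 2.26 at 978.5 mg/kg, against 3.57 to 4.62 in the vehicle arrays, so the groups did not overlap. The means were 2.38 and 4.04, a difference of -1.66 (two-sided exact permutation p = 0.0119, the smallest that 84 splits of these arrays allow). The gap was 2.38, 2.77 and 2.55 at 489.2 mg/kg and 3.21 to 3.85 at the 3 lower doses. The main probe set thus fell by more than the other, so the size of the fall in Cdkn1a differs with the probe set that reads it. The part of the low level of the other probe set in this was not tested.

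**Figure D3:**
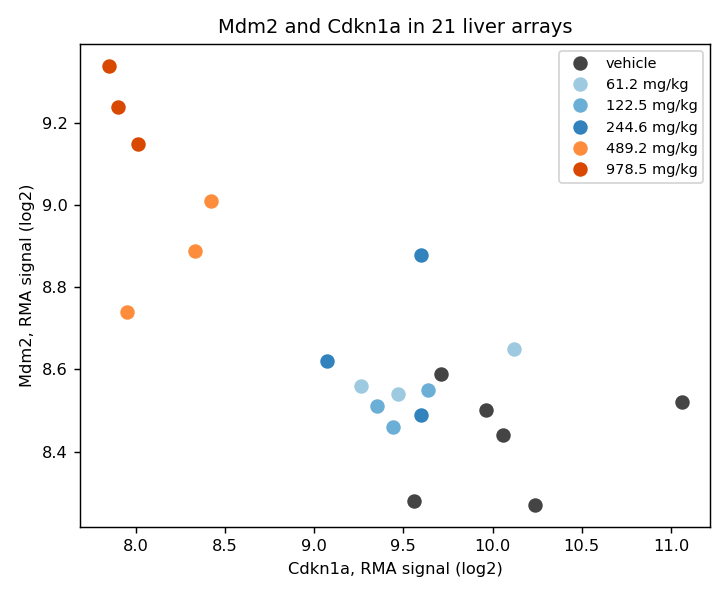
Main probe set signal of Cdkn1a against that of Mdm2 on each of the 21 arrays (log2 signal on both axes), marked by dose. The arrays of 489.2 and 978.5 mg/kg lie apart from the rest, with Mdm2 at 8.74 or above and Cdkn1a at 8.42 or below.

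Set beside each other, the main probe sets of Mdm2 and Cdkn1a had a Pearson r of -0.79 over the 21 arrays. The arrays share dose groups, and this value is a description. At 61.2 to 244.6 mg/kg neither gene passed the test. The Cdkn1a differences were -1.87 at 489.2 mg/kg and -2.18 at 978.5 mg/kg, and those of Mdm2 0.45 and 0.81 at the same doses.

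Aen, a nuclease that promotes apoptosis, had main probe set (1383491_at) signals of 7.84, 7.98 and 7.89 at 978.5 mg/kg, against 8.14, 8.21 and 8.46 (lowest, median and highest) in vehicle. The groups did not overlap, and Aen fell by 0.34 on the log2 scale (SE 0.08, limma adjusted p = 0.00901). The 489.2 mg/kg arrays read 8.05, 8.03 and 8.15, with 1 array inside the vehicle range (-0.17 ± 0.08, limma adjusted p = 0.323). The trend on dose rank passed (-0.07 ± 0.01 per step, limma adjusted p = 0.00388).

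The second Aen probe set, 1384997_at, is dim, at percentile 26.8 of level against 60.2 for the main one, and was not called. It read 5.92, 6.17 and 6.23 at 978.5 mg/kg, against 5.76, 6.01 and 6.21 in vehicle, and the groups overlapped (0.10 ± 0.12, limma adjusted p = 0.683). With the mean of both probe sets the difference at 978.5 mg/kg was -0.12 (limma adjusted p = 0.35), and without replicate 1 of that dose the main probe set gave -0.31 (limma adjusted p = 0.0537). The call for Aen thus rests on its brighter probe set and needs that array, and whether the dim one could show a change of that size was not tested.

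Ccng1, cyclin G1, which brings a protein phosphatase to Mdm2, was read by 1367764_at at 9.18, 8.87 and 9.42 at 978.5 mg/kg, against 8.73, 8.91 and 9.65 (lowest, median and highest) in vehicle. The groups overlapped at every dose, and the differences lay between -0.18 at 122.5 mg/kg and 0.15 ± 0.16 at 978.5 mg/kg (limma adjusted p = 0.608 at 978.5 mg/kg). Vehicle replicate 6 was the high array; without it the difference at 978.5 mg/kg was 0.28 and still did not pass (limma adjusted p = 0.143). The trend on dose rank did not pass (0.03 ± 0.03 per step, limma adjusted p = 0.513).

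Phlda3, a small protein that keeps the kinase Akt from the membrane, was read by 1375224_at at 9.39, 8.44 and 8.17 at 978.5 mg/kg, against 8.25, 9.29 and 9.86 in vehicle. Its arrays scattered widely in both groups, which overlapped. The difference was -0.45 ± 0.27 (limma adjusted p = 0.315) at 978.5 mg/kg and -0.47 ± 0.27 (limma adjusted p = 0.448) at 489.2 mg/kg, where the signals were 8.51, 8.80 and 8.63. The trend did not pass with all arrays (-0.09 per step, limma adjusted p = 0.202) and passed without vehicle replicate 6, its lowest vehicle array (-0.13, limma adjusted p = 0.0368).

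Counted together, 1 of the 5 genes rose and 2 fell at 978.5 mg/kg, where 10.2% of all 14218 genes were called, 6.18% higher and 4.07% lower. The 489.2 mg/kg arrays gave 1 rise and 1 fall, where 2.9% of all genes were called, 1.51% higher and 1.39% lower. At 244.6 mg/kg 0 of 5 were called by limma (2.95% of all genes), with 2, Mdm2 and Cdkn1a, at an unadjusted p under 0.05, a level that 14% of all genes reached. At 122.5 mg/kg 0 of 5 were called (0.113% of all genes), with 1, Cdkn1a, at an unadjusted p under 0.05 (6.06% of all genes). At 61.2 mg/kg 0 of 5 were called (0.0141%), with 0 at an unadjusted p under 0.05 (5.48%). On dose rank 1 rose and 2 fell, while 11.2% of all genes were called, 6.06% higher and 5.12% lower. Genes whose 3 arrays at 978.5 mg/kg all lay above all vehicle arrays made up 6.74% of all genes, and those wholly below 6.79%; Mdm2 belongs to the first set, and Cdkn1a and Aen to the second. The same shares at 489.2 mg/kg were 3.54% above, where Mdm2 lay, and 2.88% below, where Cdkn1a lay. Of the 9 probe sets, 5 were called at 978.5 mg/kg (6.39% of all probe sets) and 3 at 489.2 mg/kg (1.65%). Since the genes were chosen with earlier results of these data known, these counts describe them and are not a test.

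Of 35 other known targets 27 were measured, with a list median of 0.05 at 978.5 mg/kg, against -0.02 over all genes. At that dose 0 rose and 2 fell, where 10.2% of all genes were called. Among the 2 was Steap3, an endosomal iron reductase (-0.95 ± 0.19, limma adjusted p = 0.00282). In the 489.2 mg/kg group, where 1.39% of all genes were called lower, 3 fell. Among them was Xpc, which recognises damaged DNA for excision repair (-0.36, limma adjusted p = 0.0458). Xpc did not pass at 978.5 mg/kg (-0.23, limma adjusted p = 0.143). Gadd45a, a classical damage-responsive target, had a difference of 0.55 ± 0.25 at 978.5 mg/kg that did not pass (limma adjusted p = 0.174). Bid, a pro-apoptotic BCL2 relative, had 0.29 ± 0.09 (limma adjusted p = 0.0538).

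**Figure D4:**
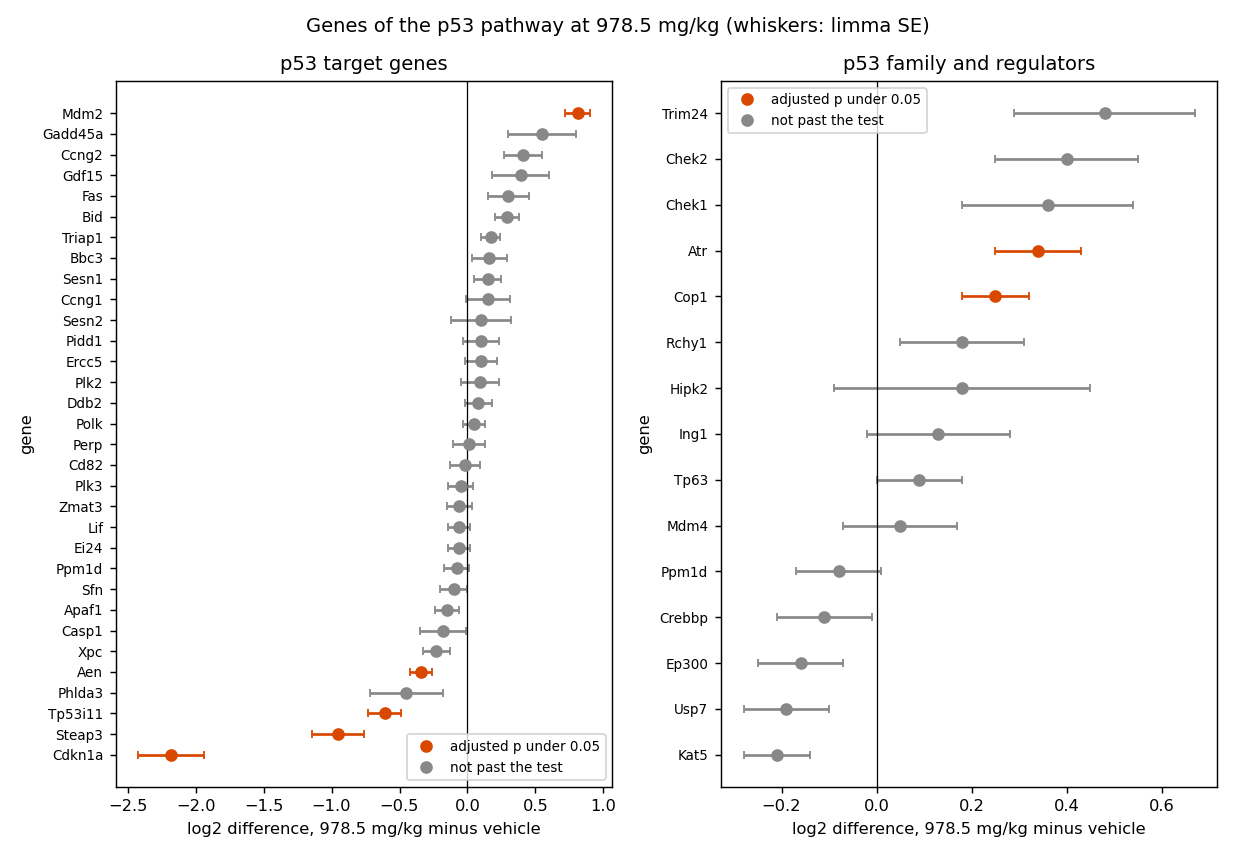
Log2 difference at 978.5 mg/kg from vehicle, with standard errors, for each measured gene of the p53 pathway, with called genes marked. Cdkn1a (-2.18), Steap3 (-0.95) and Mdm2 (0.81) lie farthest from 0 among the called genes.

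In the list of p53 regulators 15 of 20 genes were measured. At 978.5 mg/kg 2 rose and 0 fell, where 6.18% of all genes were called higher and 4.07% lower. The 2 were Atr, a kinase that senses stalled replication (0.34 ± 0.09, limma adjusted p = 0.0163), and Cop1, another ubiquitin ligase of p53 (0.25 ± 0.07, limma adjusted p = 0.0382). Kat5, an acetyltransferase of p53, did not pass (-0.21 ± 0.07, limma adjusted p = 0.0779). At 244.6 mg/kg 2 rose and 0 fell, where 2.95% of all genes were called. Chek2, a checkpoint kinase, rose by 0.81 ± 0.15 (limma adjusted p = 0.00395) and Atr by 0.38 (limma adjusted p = 0.0153). At 978.5 mg/kg Chek2 was at 0.40 ± 0.15 and did not pass (limma adjusted p = 0.102).

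Proliferation genes, which p21 holds down through the cell cycle kinases, had their highest list median at 244.6 mg/kg. Of 20 such genes 19 were measured, and 14 rose at 244.6 mg/kg (list median 1.02), where 2.95% of all genes were called. Cdkn1a had not passed the test at that dose (-0.68, limma adjusted p = 0.168). At 489.2 mg/kg, where Cdkn1a had fallen and 2.9% of all genes were called, limma called 0 of the 19 (list median -0.10). In the step from 244.6 to 489.2 mg/kg 13 fell (list median -1.17 against 0.02 over all genes), where 1.7% of all genes were called. At 978.5 mg/kg 1 rose, the replication helicase subunit Mcm4 (0.71 ± 0.21, limma adjusted p = 0.0336), and 18 of 19 had positive differences, with a list median of 0.29. Mcm4 was at 0.61 at 244.6 mg/kg, and missed the threshold there (limma adjusted p = 0.141). Pcna, the replication clamp that p21 also binds, had 0.48 ± 0.16 at 978.5 mg/kg (limma adjusted p = 0.0546), where 10.2% of all genes were called. The part of Cdkn1a in the changes of the proliferation genes was not tested.

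**Figure D5:**
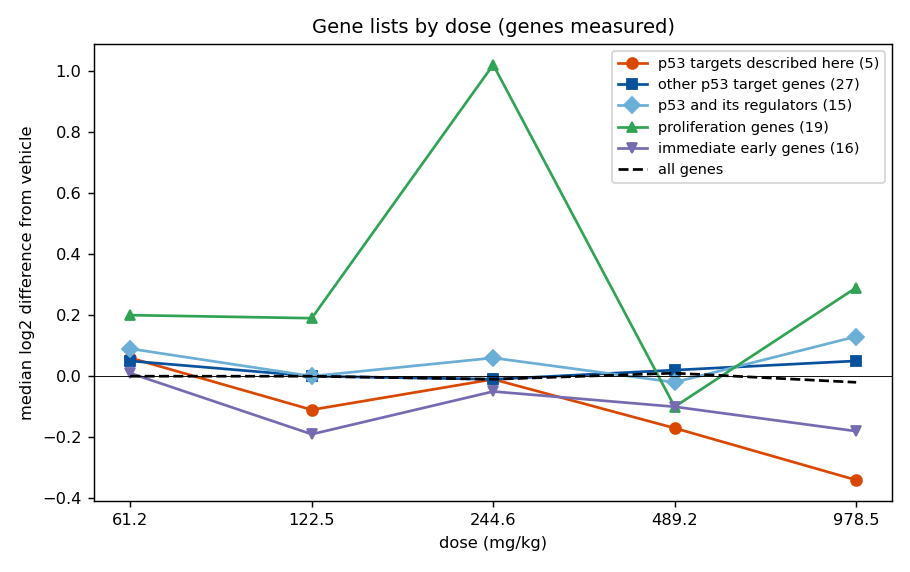
Median log2 difference from vehicle over the measured genes of each list, by dose in mg/kg. The proliferation genes peak at 244.6 mg/kg (1.02), and the other p53 target genes stay between -0.01 and 0.05 at all 5 doses.

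All 14 of the other brakes on the cell cycle were measured, and at 978.5 mg/kg 1 rose and 1 fell: Tob1, an antiproliferative relative of Btg2 (0.42 ± 0.13, limma adjusted p = 0.0401), and Cdkn1c, the p57 inhibitor (-0.44 ± 0.11, limma adjusted p = 0.0163). Cdkn1b, the p27 inhibitor, had a difference of 0.01 ± 0.08 (limma adjusted p = 0.944). Of 12 cyclins and cyclin-dependent kinases 1 rose, Cdk4 (0.28 ± 0.09, limma adjusted p = 0.0498), and 0 fell. In this comparison 10.2% of all genes were called.

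Of all genes 10.2% were called at 978.5 mg/kg, 6.18% higher and 4.07% lower. Of the BCL2 family and other apoptosis genes, among which Bax works, 16 of 19 were measured. At 978.5 mg/kg 2 rose and 0 fell: Bcl2l11, the pro-apoptotic Bim (0.77 ± 0.20, limma adjusted p = 0.0182), and Bnip3l, a mitophagy receptor (0.34 ± 0.10, limma adjusted p = 0.037). Of 16 immediate early genes, which answer quickly to growth and stress signals, 0 rose and 2 fell: Egr1 (-2.51 ± 0.60, limma adjusted p = 0.0112) and Ier2 (-0.89 ± 0.18, limma adjusted p = 0.00328). Of 18 measured targets of the glucocorticoid receptor and FOXO factors, 1 rose, the mTOR inhibitor Ddit4 (1.74 ± 0.35, limma adjusted p = 0.00292), and 1 fell, Txnip (-0.56 ± 0.15, limma adjusted p = 0.022).

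The genes most like Mdm2 over the 21 arrays, among 13980 ranked by Pearson r of the main probe sets, were Alas1 (0.94), Lactb2 (0.91), Slc35e3, Tex2 and Ttc39a (0.90 each). Alas1, which makes the first step of haem synthesis, rose by 1.95 ± 0.19 at 978.5 mg/kg (limma adjusted p = 2.68e-06). It belongs to the list of CAR and PXR targets, the genes of the xenobiotic receptors. Of these, 13 of 16 measured rose and 0 fell at that dose, where 6.18% of all genes were called higher. The part of these receptors in the rise of Mdm2 was not tested. The most opposed to Mdm2 were the transporters Slc22a7 and Slc6a6 (-0.85 each) and Slc34a2 (-0.84). These values are descriptions over arrays that share the same 6 dose groups.

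Those most like Cdkn1a were Plin2 (0.92), a lipid droplet protein, Svil and Coro1c (0.89 each), and Syne1 and Bmal1 (0.87 each). Plin2 fell by 1.0 on the log2 scale at 978.5 mg/kg (SE 0.14, limma adjusted p = 9.37e-05) and Bmal1, a core clock factor, by 1.11 (SE 0.18, limma adjusted p = 0.000686). The most opposed were Klf15 (-0.92), Slc35e3 and the drug exporter Abcb1a (-0.90 each). At 978.5 mg/kg, where 10.2% of all genes were called, 6 of 15 measured clock genes rose and 4 fell. Among them were Dbp (2.87 ± 0.45, limma adjusted p = 0.000478) and Npas2 (-1.75 ± 0.17, limma adjusted p = 2.51e-06). Their part in the fall of Cdkn1a was not tested.

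The tissue read as liver: 7 of 8 hepatocyte markers were measured, 0 were called at 978.5 mg/kg, and their mean log2 level was 14.65 to 14.67 at that dose, against 14.64 to 14.75 in vehicle. Markers of some other cells were lower at the highest dose, and in part at lower ones, where 4.07% of all genes were called lower at 978.5 mg/kg. The mean level of endothelial markers (8.6 to 9.04 at 978.5 mg/kg, against 8.64 to 9.34 in vehicle) overlapped vehicle, with 0 called. That of neutrophil markers (5.88 to 6.15, against 5.79 to 8.49) also overlapped, with 0 called. That of bile duct markers lay inside the vehicle range (6.51 to 6.56, against 6.33 to 6.73), and 1 of them rose. All 8 measured macrophage markers were lower at 978.5 mg/kg and 1 of them fell, with a mean level of 9.01 to 9.47, against 9.56 to 10.07 in vehicle; all 8 also had negative differences at 122.5, 244.6 and 489.2 mg/kg, with 0 called by limma there. Of 4 measured red blood cell markers 3 fell, with 8.42 to 9.19 at 978.5 mg/kg, against 9.23 to 10.29 in vehicle, and all 4 had negative differences from 61.2 to 244.6 mg/kg. All 9 stellate cell markers were lower at 978.5 mg/kg and 2 of them fell (7.46 to 7.83, against 7.85 to 8.18 in vehicle), and all 8 measured lymphocyte markers were lower with 0 called (5.63 to 5.82, against 5.82 to 6.13). In whole liver, fewer cells of a type and less RNA per cell cannot be told apart, and the part of these shifts in the changes of Mdm2, Cdkn1a and Aen was not tested. The medians of the 21 arrays lay between 6.33 and 6.41.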

How the data were processed

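Expression was measured on 21 arrays of rat liver RNA. The authors deposited log2 signals, which were used without further scaling. Per the submitters' processing notes they come from RMA; its version is not given in the labels. RMA fits all arrays together, so values of 1 array depend on the others. Of 31099 probe sets, 20832 were paired with 1 gene in the platform annotation, 436 with several and 9831 with none. Each of 14218 genes was read at its probe set of highest mean.

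The tests were those of limma (version 3.58.1, R 4.3.3), with 1 mean per group over all 21 arrays, Benjamini-Hochberg adjustment over all genes and a threshold of 0.05. Each dose was compared with vehicle and with the dose below it, and dose rank was fitted as a trend. All 9 probe sets of the members were also read from a fit over all probe sets. The difference between the Cdkn1a probe sets was tested by exact permutation. Tables and figures were made with Python 3.11.15, pandas 2.3.3 and matplotlib 3.10.9. The limma steps were tested on simulated data. The number of arrays, 3 per dose, limits the precision.

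The members and lists were chosen with earlier results of these data known. Genes were named by a rule that takes all members, the 3 genes of each list with the smallest p at 978.5 mg/kg, any other p53 target or regulator called at a dose, the 5 most and 3 least like Mdm2 and Cdkn1a, and a few set genes; some are left out for length. Alternatives covered the probe set per gene, dim genes, scaling, the variance model, the arrays fitted, the dose scale, the replicate number as a block and each array left out.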

Additional observations from a re-analysis of the deposited data

Results flagged for a closer look

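The Ccng1 signal of vehicle replicate 6 was 9.65, while the other 5 vehicle arrays lay between 8.73 and 8.98. Its gap to the nearest array was 0.723 of the range of the 6 arrays, beyond the critical value of Dixon's test (0.625). Of the 9 probe sets of these genes this was the only one so marked in the vehicle group, and chance marks about 1 in 20 groups. The same array had the highest vehicle signal for Cdkn1a (11.06) and the lowest for Phlda3 (8.25), and the lowest mean correlation with the other arrays (0.988).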

How the results depend on the processing

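No difference of the 5 genes changed sign where it was called, under any of 171 alternatives per gene, and Ccng1 kept its side of the threshold in all 171. The 171 count each setting once per comparison, including comparisons where a gene was not called and had no call to lose. Mdm2 lost a call in 3 alternatives, all at 489.2 mg/kg against vehicle, and Aen in 3. Cdkn1a lost a call in 5, all in the step from 244.6 to 489.2 mg/kg, and Phlda3 gained one in 3. The number of members called at 489.2 mg/kg was 2 and became 1 with only the arrays compared, 1 with the replicate block, and 1 to 2 with an array left out. For 489.2 over 244.6 mg/kg it was 1 and became 0 with the mean of all probe sets, and 0 to 1 with an array left out. The Aen trend was -0.03 with the mean of its probe sets (limma adjusted p = 0.18). The gap between the Cdkn1a probe sets changed by -1.83 to -1.55 with an array left out.

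The labels give replicate numbers no meaning, so the numbers were not taken to pair the arrays. Not every same-numbered pair correlated, which does not settle whether the numbers pair the arrays. Deviations of the 45 same-numbered pairs had a mean correlation of 0.036 (-0.23 to 0.369), 17 of them over 0.1, against -0.012 for 135 other pairs, 28 of them over 0.1. Of 18 arrays, 10 were closest to their own among the 3 numbers. With the replicate block, Mdm2 at 489.2 mg/kg was 0.37 (limma adjusted p = 0.072), and Phlda3 passed at 978.5 mg/kg (-0.83, limma adjusted p = 0.035) and in the trend (-0.16, limma adjusted p = 0.0146).

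Counts of called genes over the whole array moved more. Against vehicle they were 420 at 244.6 mg/kg, with 250 among genes above the median level, 112 without its replicate 1 and 230 without its replicate 2. They were 412 at 489.2 mg/kg, with 160 when only the arrays compared were fitted, 157 without its replicate 1 and 251 without its replicate 3. They were 1457 at 978.5 mg/kg, with 961 when only the arrays compared were fitted, 904 without its replicate 1 and 702 without its replicate 3. The 16 genes at 122.5 mg/kg became 8 with only those arrays and 4 with the block, and 4 to 17 with an array left out. The 2 at 61.2 mg/kg became 1 with only the arrays compared or with the block, and 0 to 2 with an array left out. For 489.2 over 244.6 mg/kg 242 became 93 above the median level, 99 with only the arrays compared and 41 to 339 with 1 array left out. It was 41 and 59 without replicate 1 and 2 of 244.6 mg/kg, and 69 and 117 without replicate 1 and 3 of 489.2 mg/kg. For 978.5 over 489.2 mg/kg 15 became 0 to 42 by setting and 2 to 126 with 1 array left out. The trend fell to 441 genes on treated arrays only, against 1589 on all arrays.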

Other observations

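The next protein-coding gene beside Mdm2 in RefSeq (GRCr8), Slc35e3, on the same strand, was looked at after its values were seen. It had signals of 9.53, 9.42 and 9.39 at 978.5 mg/kg, against 8.38 to 8.65 in vehicle, so the groups did not overlap. It rose by 0.90 ± 0.08 at 978.5 mg/kg (limma adjusted p = 6.92e-07) and by 0.73 ± 0.08 at 489.2 mg/kg (limma adjusted p = 3.38e-05). The other measured neighbours of Mdm2 did not pass at 978.5 mg/kg: Cpm, a carboxypeptidase on the other side, had 0.02 ± 0.09 (limma adjusted p = 0.925), Nup107, a nuclear pore protein, 0.02 ± 0.09 (limma adjusted p = 0.91) and Cpsf6, a factor of mRNA 3' end processing, -0.04 ± 0.09 (limma adjusted p = 0.82). Beside Cdkn1a, on 1 side, the kinase Stk38 had 0.11 ± 0.07 (limma adjusted p = 0.358) and the splicing factor Srsf3 0.00 ± 0.11 (limma adjusted p = 0.994). Srsf3 is dim, at 3.59 to 4.16 on all arrays, below the array medians of 6.33 to 6.41. Whether so dim a probe set could show a change was not tested. Rab44 and Npbwr1l1, on the other side of Cdkn1a, were not measured.

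Gadd45b, a stress-responsive relative of Gadd45a that was put on the list of CAR and PXR targets, rose by 1.75 ± 0.19 at 978.5 mg/kg (limma adjusted p = 7.54e-06), with all 3 arrays above all vehicle arrays.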
